A study of Homo sapiens with 8 samples.

Results

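The lytic cell death effectors are 10 genes whose products open or tear the plasma membrane, or switch on the proteins that do: NINJ1, GSDMD, DFNA5, MLKL, RIPK1, RIPK3, CASP1, CASP4, CASP8 and PANX1. They were taken from the deposited count table by symbol, which gave 1 row for each of the 10 among 55679 gene identifiers. DFNA5 is the older symbol of GSDME and is used here as the table gives it. The rule uses symbols alone and no measured value, though the genes were proposed with earlier results of these data known.

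In lytic death a cell swells, loses its ion gradients and spills its content, and several routes lead there. In pyroptosis the inflammatory caspases CASP1 and CASP4 cut gasdermin D (GSDMD), whose freed end inserts into the membrane as a pore, and gasdermin E (DFNA5) is opened in the same way by an executioner caspase. In necroptosis the kinases RIPK1 and RIPK3 activate MLKL, which permeabilises the membrane, and CASP8 holds this route back by cutting the kinases. NINJ1 oligomerises in swollen cells and tears the membrane at the end of several of these routes, and PANX1 is a large membrane channel that caspases can open. These proteins are switched by cleavage, phosphorylation and assembly, so mRNA gives their supply and not their activity.

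RNA was measured by sequencing of polyadenylated transcripts in 8 libraries from MDA-MB468 and BT549, established human triple-negative breast cancer lines grown in RPMI medium. Each line was sequenced as parental cells, which are sensitive to Acetalax (oxyphenisatin acetate, a compound that acts on the ion channel TRPM4), and as CE cells, a resistant derivative of the same line made by chronic exposure to rising Acetalax up to 40 μmol/L and kept off the drug for 2 weeks before use. Parental and CE cells were each harvested untreated (control) and 6 hours into treatment with 1 μmol/L Acetalax. Every condition had 1 library, so the replicates of an Acetalax effect are the 4 pairs of control and treated libraries, those of a CE effect are the 2 lines or the control and treated pairs of one line, and each line has 1 CE derivative. Nothing in the sources says that the libraries came from separate cultures, so p-values measure the spread between these libraries, and the pairs of one line are not independent lines.

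The libraries held 42261122 to 54241728 counts on genes, of which 4.00% to 10.0% fell on mitochondrial genes, with the lowest share in Acetalax-treated CE BT549 cells. Levels are given as CPM (counts scaled to a library of 1000000 counts on genes), so that 1 CPM is 42.3 to 54.2 counts. EPCAM and CDH1, which mark epithelial cells, lay at 409 to 438 and 119 to 155 CPM in the MDA-MB468 libraries and below 1 CPM in the BT549 libraries. VIM, an intermediate filament of mesenchymal cells, lay at 864 to 1415 CPM in BT549 and at 1.77 to 8.93 CPM in MDA-MB468, so the labelled lines carried the markers that separate them. TRPM4, the drug's target, was listed at 49.0 and 47.8 CPM in parental MDA-MB468 (control, Acetalax), 60.2 and 59.0 in CE MDA-MB468, 20.1 and 14.4 in parental BT549 and 31.6 and 20.5 in CE BT549.

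Levels of the effectors. Per length of transcript, as FPKM from the merged exons of the hg19 annotation, the 8-library means ran from 11.2 for NINJ1 and 10.5 for GSDMD over 8.47 for PANX1, 6.18 for CASP4, 4.87 for RIPK1, 3.39 for CASP8, 3.06 for CASP1 and 2.96 for DFNA5 to 1.95 for MLKL and 0.0040 for RIPK3. This annotation may not be the one behind the counts, and its bounds of CASP1 and CASP8 differ from those in the count table. The order above MLKL is loose. NINJ1 ranged from 3.66 to 17.6 FPKM and GSDMD from 7.16 to 18.6 FPKM over the libraries, and neighbours in the list overlapped in this way down to MLKL. RIPK3 had the lowest mean, with 0 to 4 counts in any library, a range shared by MLKL and CASP1 in parental BT549.

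**Figure D1:**
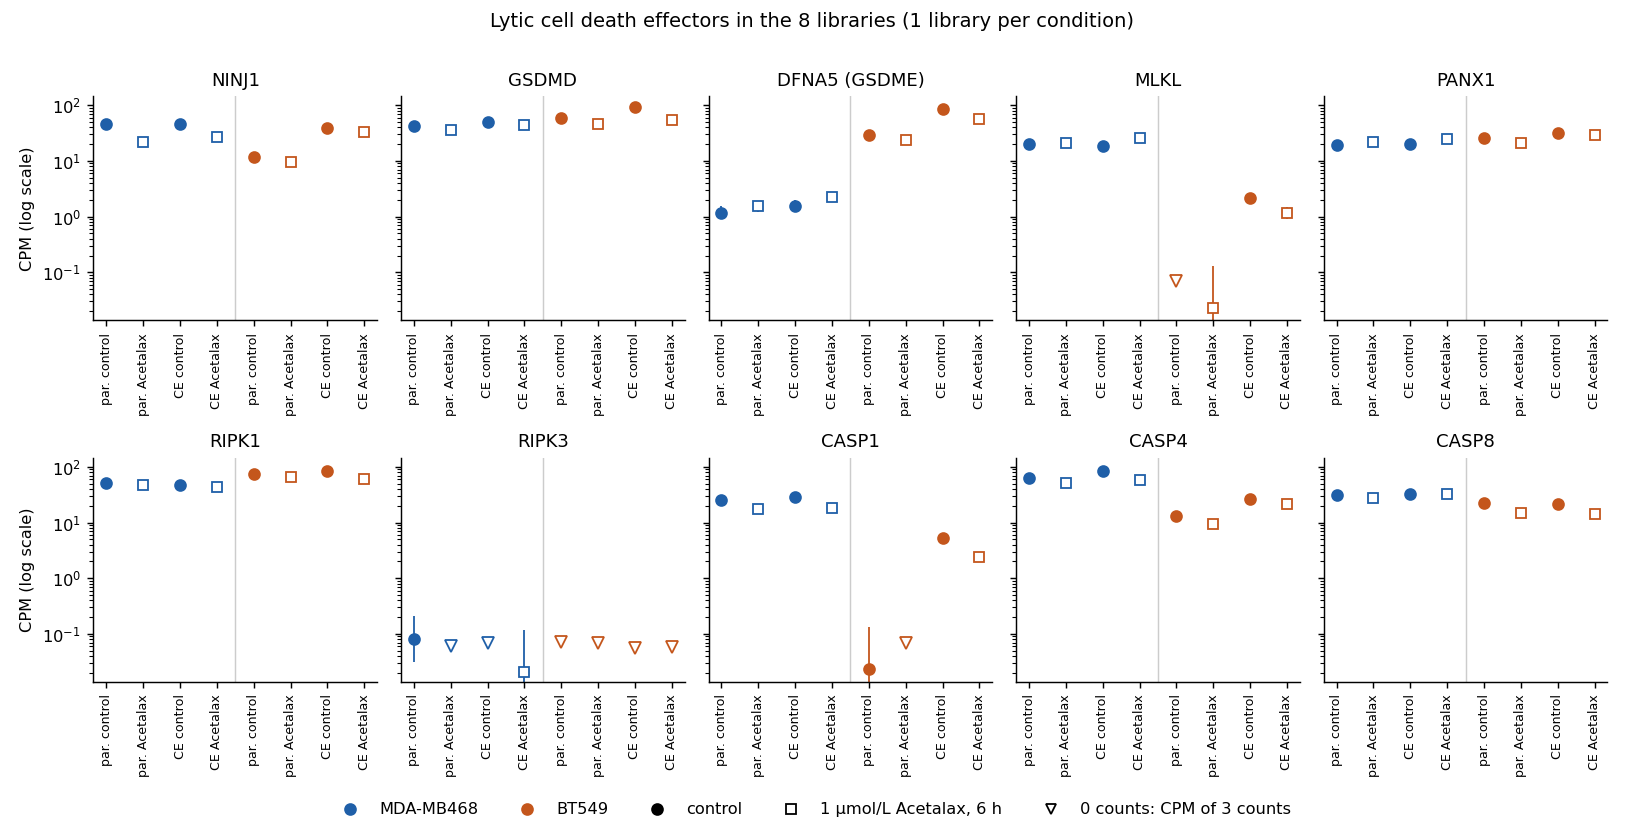
CPM of the 10 effectors (log scale) in the 8 libraries, 4 of MDA-MB468 (blue) and 4 of BT549 (orange), control as filled circles and Acetalax as open squares, with 95% Wilson intervals of the count and open triangles at the CPM of 3 counts where a library had 0. MLKL and CASP1 had at most 1 count in the parental BT549 libraries and 59 to 281 counts in the CE BT549 libraries, DFNA5 lay below 3 CPM in MDA-MB468, and RIPK3 was near 0 throughout.

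NINJ1 (ENSG00000131669, hg19 chr9:95883771-95896570), the membrane rupture protein, was listed at 45.8 CPM in control and 22.1 CPM in treated parental MDA-MB468, at 45.1 and 27.4 in CE MDA-MB468, at 11.8 and 9.54 in parental BT549 and at 39.0 and 33.0 in CE BT549. The 2 parental BT549 libraries were the lowest of the 8, and CE BT549 lay inside the range of MDA-MB468. GSDMD (ENSG00000104518, hg19 chr8:144635377-144645232) was listed at 42.4 and 36.4 CPM in parental MDA-MB468, 50.5 and 43.8 in CE MDA-MB468, 59.0 and 45.6 in parental BT549 and 94.7 and 53.7 in CE BT549. Its highest library was untreated CE BT549, and in each of the 4 backgrounds the treated library was the lower one.

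DFNA5 (ENSG00000105928, hg19 chr7:24737972-24809244), the second gasdermin of the 10, separated the lines. It was listed at 1.17 and 1.54 CPM in parental MDA-MB468 (57 and 75 counts), 1.54 and 2.25 in CE MDA-MB468, 29.4 and 23.9 in parental BT549 and 87.0 and 56.6 in CE BT549. MLKL (ENSG00000168404, hg19 chr16:74705753-74734858), the membrane permeabilising protein of necroptosis, ran the other way, at 20.3 and 21.0 CPM in parental MDA-MB468 and 18.2 and 26.0 in CE MDA-MB468. In parental BT549 it had 0 counts in the control library, which allows up to 0.0710 CPM by the 3 counts that a count of 0 permits, and 1 count in the treated library. In CE BT549 it had 116 and 59 counts, or 2.14 and 1.17 CPM. PANX1 (ENSG00000110218, hg19 chr11:93862094-93915138) moved least in level, between 19.2 and 31.3 CPM over the 8 libraries, and all 4 MDA-MB468 libraries lay at 24.7 CPM or below.

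Of the kinases, RIPK1 (ENSG00000137275, hg19 chr6:3064225-3115421), which relays death receptor signals, was listed at 51.5 and 47.5 CPM in parental MDA-MB468, 46.4 and 43.9 in CE MDA-MB468, 75.1 and 66.3 in parental BT549 and 82.7 and 60.7 in CE BT549, so that the lines did not overlap. Its exons share 454 bases with genes on the opposite strand in the annotation, and which strand setting the counts used is not given in the sources used here. RIPK3 (ENSG00000129465, hg19 chr14:24805227-24809251), the kinase that phosphorylates MLKL, had 4 counts in untreated parental MDA-MB468, 1 count in treated CE MDA-MB468 and 0 in the other 6 libraries, which allows at most 0.0553 to 0.0710 CPM there. Its exons share 358 bases with a noncoding gene on the same strand in the annotation, and reads that fit both genes are not counted. RIPK3 failed the filter on low counts and was not tested, so 9 of the 10 effectors were tested.

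Of the caspases, CASP1 (ENSG00000137752, hg19 chr11:104896170-104972158), the inflammasome's caspase, was listed at 24.9 and 17.5 CPM in parental MDA-MB468 and 29.0 and 18.0 in CE MDA-MB468. It had 1 and 0 counts in parental BT549 and 281 and 122 counts (5.18 and 2.41 CPM) in CE BT549, so that CE BT549 lay between parental BT549 and MDA-MB468, as for MLKL. CASP4 (ENSG00000196954, hg19 chr11:104813593-104840163), which senses lipopolysaccharide in the cytosol, lies on the same chromosome and was listed at 64.3 and 51.6 CPM in parental MDA-MB468, 84.6 and 58.7 in CE MDA-MB468, 13.3 and 9.52 in parental BT549 and 26.5 and 21.4 in CE BT549. CASP8 (ENSG00000064012, hg19 chr2:202098166-202152434), the caspase of death receptors, was listed at 31.4 and 27.6 CPM in parental MDA-MB468, 32.8 and 32.0 in CE MDA-MB468, 22.4 and 14.6 in parental BT549 and 21.6 and 14.0 in CE BT549, with no overlap between the lines.

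The start sites of 4 effectors that were higher in CE than in parental BT549 cells (below) are shown because their base composition differs widely. RefSeq promoters (GRCh38.p14) matched 7 of the 10 effectors by symbol, DFNA5 as GSDME, and GSDMD, RIPK3 and CASP1 had no entry. Each run is the 250 bases before the annotated start, read 5′ to 3′ on the gene's strand, with CpG dinucleotides in capitals. The windows lie on the minus strand at chr16:74700863-74701112 (MLKL), chr11:104968575-104968824 (CASP4), chr9:93134252-93134501 (NINJ1) and chr7:24757465-24757714 (GSDME).
MLKL: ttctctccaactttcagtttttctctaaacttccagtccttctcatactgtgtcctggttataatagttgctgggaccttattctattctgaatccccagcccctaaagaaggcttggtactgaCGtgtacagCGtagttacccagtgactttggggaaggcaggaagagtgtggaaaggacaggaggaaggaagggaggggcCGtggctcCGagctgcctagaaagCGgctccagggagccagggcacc
CASP4: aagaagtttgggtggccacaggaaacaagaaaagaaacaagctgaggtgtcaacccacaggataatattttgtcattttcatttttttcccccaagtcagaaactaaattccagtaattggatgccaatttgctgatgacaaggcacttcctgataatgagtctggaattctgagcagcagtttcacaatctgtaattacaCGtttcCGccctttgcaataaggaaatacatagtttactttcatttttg
NINJ1: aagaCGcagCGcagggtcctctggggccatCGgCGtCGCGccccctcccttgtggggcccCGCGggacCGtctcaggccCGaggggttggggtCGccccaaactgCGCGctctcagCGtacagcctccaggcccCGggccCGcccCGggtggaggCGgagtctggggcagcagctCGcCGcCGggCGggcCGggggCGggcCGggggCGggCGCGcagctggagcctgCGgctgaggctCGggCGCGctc
GSDME: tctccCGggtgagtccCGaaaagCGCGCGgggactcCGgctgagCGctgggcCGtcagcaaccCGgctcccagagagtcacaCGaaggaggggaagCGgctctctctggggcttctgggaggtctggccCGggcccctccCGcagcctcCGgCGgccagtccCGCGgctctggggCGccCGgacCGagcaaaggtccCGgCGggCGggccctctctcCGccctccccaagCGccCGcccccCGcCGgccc
MLKL held 5 CpGs and CASP4 held 2, as against a median of 11 over 35116 promoter windows of the same length, whereas NINJ1 held 32 and GSDME 28. As many or fewer were present in 38.1% of all windows for MLKL, 22.9% for CASP4, 91.9% for NINJ1 and 85.9% for GSDME. None of the 4 windows held GAAANNGAA (a core of sites bound by interferon regulatory factors, present in 6.88% of all windows) or TGANTCA (the AP-1 core, 6.57%), searched on both strands. No match says only that these letters are not in these 250 bases.

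Response to Acetalax. The first question is how the supply of these transcripts stood 6 hours after the drug was added. No effector passed the test: 0 of the 9 tested had an adjusted p under 0.05 over the 4 backgrounds (edgeR quasi-likelihood test, Benjamini-Hochberg over all genes), where 984 of 19693 genes, 5.00%, did (2.72% higher and 2.27% lower). The fitted log2 fold changes of the 9 had a median of -0.27, as against -0.04 over all genes tested, and 6 of 9 lay below 0, as against 53.3% of all genes. Under scaling by total counts instead of TMM, the split of the called genes turned from 536 higher and 448 lower to 373 higher and 685 lower.

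**Figure D2:**
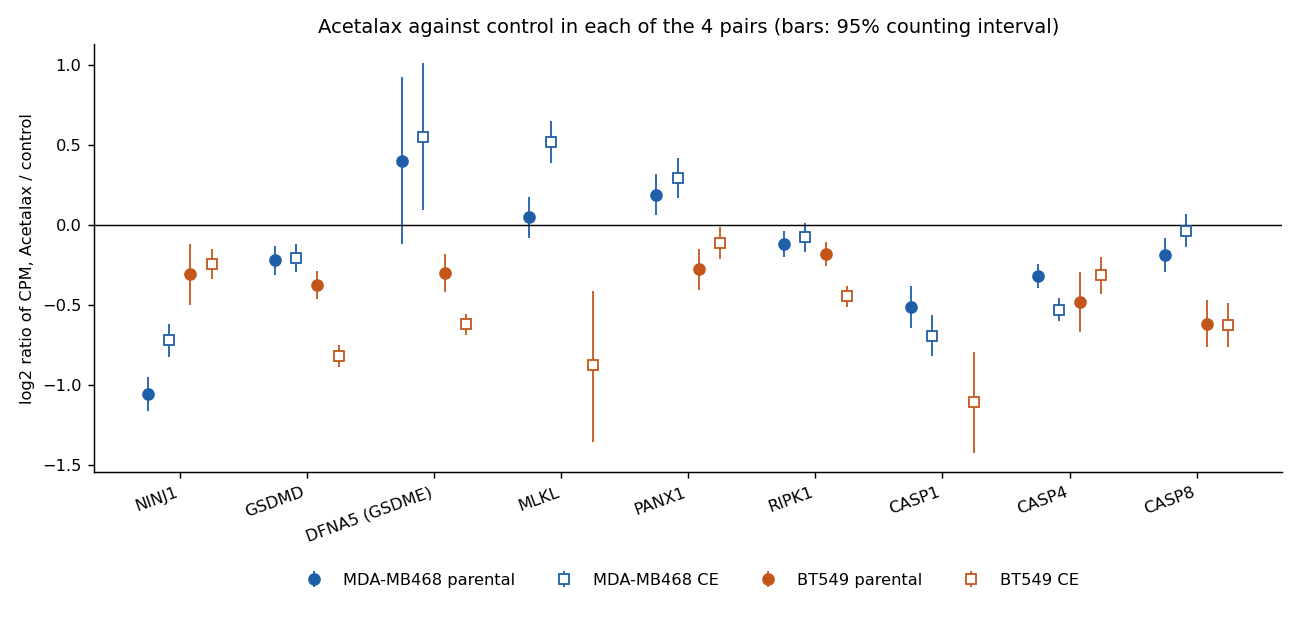
log2 ratio of CPM, Acetalax over control, of 9 effectors in each of the 4 pairs (parental filled circles, CE open squares, MDA-MB468 blue, BT549 orange), with 95% counting intervals. NINJ1, GSDMD and CASP4 lay below 0 in all 4 pairs, as did their intervals, and DFNA5 and PANX1 lay above 0 in MDA-MB468 and below 0 in BT549. MLKL and CASP1 have no ratio in parental BT549.

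NINJ1 was lower after Acetalax in 4 of 4 pairs, by more in MDA-MB468 than in BT549. Its log2 ratio of CPM was -1.05 (95% counting interval -1.16 to -0.95) in parental and -0.72 (-0.82 to -0.62) in CE MDA-MB468, a fall to 0.482 and 0.607 of control. In BT549 it was -0.31 (-0.50 to -0.12) in parental and -0.24 (-0.33 to -0.15) in CE cells. These intervals, exact and conditional on the pair's total, cover counting error only. Over the 4 backgrounds the log2 fold change of NINJ1 was -0.49 (SE 0.17, adjusted p = 0.114), which passed only without the filter on low counts (0.0356), and the response of BT549 minus that of MDA-MB468 was 0.67 (SE 0.21, adjusted p = 0.172).

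The caspases of pyroptosis and their substrate were lower in each pair that could be measured. CASP1 gave log2 ratios of -0.51 (-0.64 to -0.38) and -0.69 (-0.82 to -0.56) in parental and CE MDA-MB468 and -1.10 (-1.42 to -0.79) in CE BT549, with no ratio in parental BT549. Its log2 fold change over the backgrounds was -0.68 (SE 0.19, adjusted p = 0.0737), the lowest adjusted p among the effectors, and it passed with DESeq2 in place of edgeR (adjusted p = 0.0147) and without the filter on low counts (0.0377). CASP4 lay between -0.53 and -0.31 in the 4 pairs (fitted -0.32, SE 0.11, adjusted p = 0.111).

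GSDMD lay at -0.22, -0.20 and -0.37 in parental MDA-MB468, CE MDA-MB468 and parental BT549 and at -0.82 (-0.89 to -0.75) in CE BT549 (fitted -0.31, SE 0.12, adjusted p = 0.140). CASP8 was at -0.62 (-0.76 to -0.47) and -0.63 (-0.76 to -0.49) in parental and CE BT549 but at -0.19 and -0.04 in MDA-MB468, the last with an interval that holds 0 (fitted -0.27, SE 0.14, adjusted p = 0.251). RIPK1 lay between -0.45 and -0.08 (fitted -0.12, SE 0.10, adjusted p = 0.482). In all, 5 effectors were lower in 4 of 4 pairs (NINJ1, GSDMD, RIPK1, CASP4 and CASP8) and CASP1 in 3 of 3. For 3 of them (NINJ1, GSDMD and CASP4) all 4 counting intervals lay below 0. How many of all genes had such intervals was not counted. Of the 13509 genes with at least 10 counts in every library, 29.8% were lower in 4 of 4 pairs, as were 5 of the 7 effectors among them. With TMM-scaled totals 21.9% of the genes and 4 of the 7 effectors were, since CASP8 turned to 0.034 in CE MDA-MB468. The counting intervals refer to scaling by total counts, and with TMM-scaled totals NINJ1 in CE BT549 lay at -0.086.

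The other 3 differed in sign between the pairs. DFNA5 was at 0.40 (-0.12 to 0.92) and 0.55 (0.09 to 1.01) in parental and CE MDA-MB468, where it is scarce, and at -0.30 (-0.42 to -0.18) and -0.62 (-0.69 to -0.55) in parental and CE BT549, where it is abundant. The difference between the lines was -0.88 (SE 0.24) and did not pass (adjusted p = 0.117), but did with DESeq2 (0.0433) and without the filter (0.0478). PANX1 followed the same signs at a smaller size, 0.19 and 0.29 in MDA-MB468 and -0.28 and -0.11 in BT549 (difference -0.38, SE 0.21, adjusted p = 0.392), but its ratio in CE BT549 turned to 0.04 with TMM-scaled totals. MLKL stood at 0.05 (-0.08 to 0.18) in parental and 0.52 (0.39 to 0.65) in CE MDA-MB468 and at -0.87 (-1.35 to -0.41) in CE BT549 (SE of the difference between lines 0.43, adjusted p = 0.284). In the test of the difference between lines 0 of the 9 effectors were called, as against 351 genes, 1.78%, of all tested.

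The question whether resistant cells answered the drug with other effectors than sensitive ones had no positive result. Within parental cells, within CE cells and in the difference of these responses 0 effectors passed (lowest adjusted p 0.579 in parental and 0.391 in CE cells), and neither did any other gene, 0% of 19693 in each, by edgeR. DESeq2 called 90 genes in parental cells, 357 in CE cells and 0 in the difference, and 1710, 2311 and 91 genes had an unadjusted p under 0.05 in edgeR. NINJ1, for instance, was at -1.05 in parental and -0.72 in CE MDA-MB468 and at -0.31 and -0.24 in parental and CE BT549.

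CE against parental cells. In BT549 the resistant derivative held more transcript of 6 effectors than the parental cells did, and in MDA-MB468 none passed the test. NINJ1, DFNA5, CASP4 and GSDMD were higher by 1.18 to 3.46-fold, and MLKL and CASP1, which parental BT549 nearly lacked, were present. In the fit to the 4 control libraries with the 2 lines as replicates 0 of 9 effectors passed (lowest adjusted p 0.947), as did 0% of 18377 genes. 610 genes had an unadjusted p under 0.05 in edgeR, and DESeq2 called 50. That fit asks for a change shared by both lines. A further fit to all 8 libraries gave each line its own CE term, with its control and Acetalax pairs as 2 replicates. The spread was estimated over both lines, so SE and p-values of BT549 also rest on the MDA-MB468 libraries. This fit was chosen after the values were seen.

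**Figure D3:**
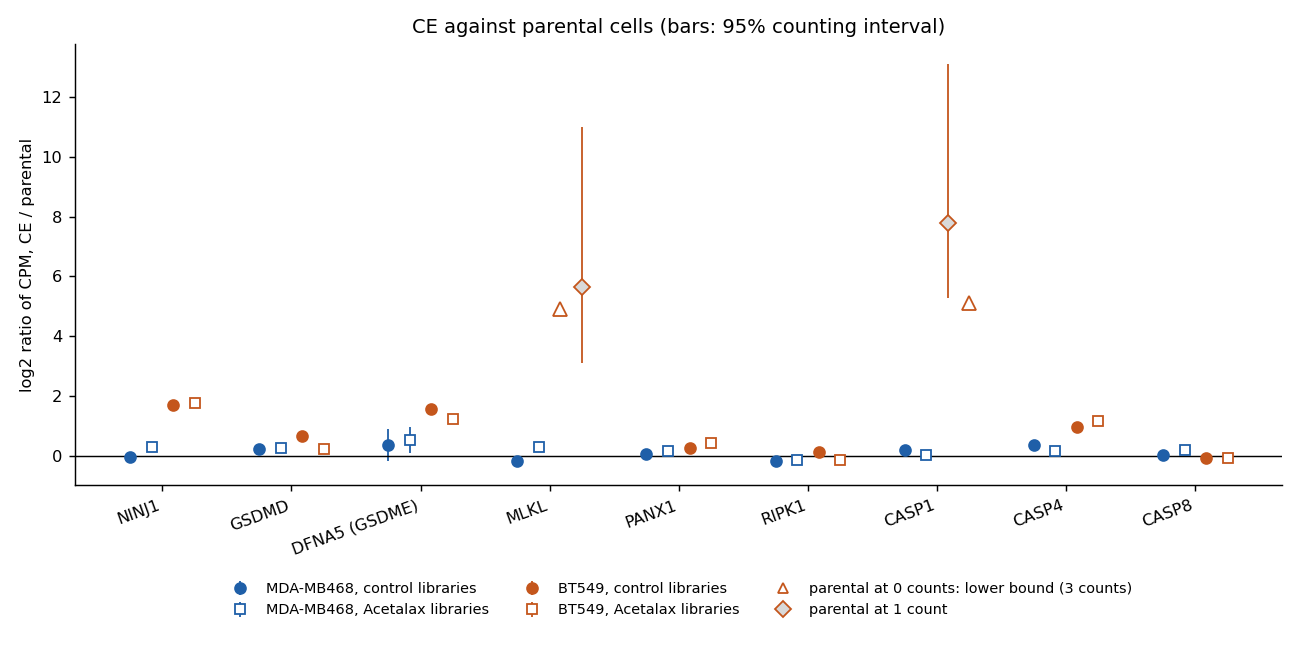
log2 ratio of CPM, CE over parental cells, of 9 effectors in the control (filled) and Acetalax-treated (open) libraries of MDA-MB468 (blue) and BT549 (orange), with 95% counting intervals, open triangles for lower bounds against 3 counts and grey diamonds where the parental library had 1 count. In BT549 both ratios of NINJ1 lay above 1.7 and both of CASP4 near or above 1, whereas all MDA-MB468 ratios lay between -0.16 and 0.54.

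In BT549, 6 of 9 effectors were called higher in CE cells and 0 lower, as against 12.3% of all genes called higher and 10.1% lower (22.4% in either direction). Under scaling by total counts the called genes turned from 2427 higher and 1983 lower to 2049 higher and 2578 lower, with the 6 effectors called and higher. NINJ1 was 3.30-fold higher in control libraries (log2 ratio 1.72, 95% counting interval 1.58 to 1.87) and 3.46-fold in treated ones (1.79, 1.63 to 1.95), with a fitted log2 fold change of 1.85 (SE 0.15, adjusted p = 0.000174). DFNA5 was 2.96-fold and 2.37-fold higher (fitted 1.50, SE 0.15, adjusted p = 0.000368). CASP4 was 2.00-fold and 2.24-fold higher (fitted 1.17, SE 0.14, adjusted p = 0.000988).

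GSDMD was 1.60-fold higher in control but 1.18-fold in treated libraries (fitted 0.55, SE 0.13, adjusted p = 0.0219), and without the control libraries of BT549 the call was lost (adjusted p = 0.143). MLKL was at least 30.1-fold higher in control libraries, against a floor of 3 counts in the parental library, and 50.7-fold (counting interval 8.76 to 2038) in treated ones. CASP1 was 219-fold higher (39.0 to 8678) in control libraries, on 281 counts against 1, and at least 35.0-fold in treated ones. Their fitted log2 fold changes, 6.93 for MLKL and 8.14 for CASP1, passed (adjusted p = 0.000204 and 2.12e-05) but depend on the prior count the tool adds and give no bound. PANX1 (0.46, adjusted p = 0.0615), RIPK1 (0.10, 0.605) and CASP8 (0.03, 0.918) were not called, PANX1 being called with DESeq2 (0.0317), with size factors (0.0480) and without the filter (0.0402).

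In MDA-MB468 the same fit called 0 of 9 effectors (adjusted p 0.306 and above), where 870 genes, 4.42%, were called. The log2 ratios of NINJ1 there were -0.02 (-0.11 to 0.07) in control and 0.31 (0.19 to 0.43) in treated libraries. The CE effect in BT549 minus that in MDA-MB468 was tested itself: 5 of 9 effectors passed with a larger value in BT549 and 0 with a smaller one, as against 7.30% and 4.91% of all genes (12.2% in either direction; 1438 higher and 966 lower, which turned to 1199 and 1352 with total counts). They were NINJ1 (1.74, SE 0.21, adjusted p = 0.00196), CASP4 (0.92, SE 0.19, adjusted p = 0.0203), DFNA5 (1.06, SE 0.24, adjusted p = 0.0260), MLKL (6.89, adjusted p = 0.000726) and CASP1 (8.05, adjusted p = 0.000102), the last 2 again with sizes that rest on the prior count. GSDMD (0.33, SE 0.19, adjusted p = 0.308) was not shown to differ between the lines. DFNA5 lost the call without the control libraries or without the Acetalax libraries of MDA-MB468 (adjusted p = 0.0727 and 0.0646), and CASP4 without those Acetalax libraries (0.108).

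Some markers of cell type also differed between CE and parental BT549. The 4 epithelial markers KRT8, KRT18, EPCAM and CDH1 summed to 8.35 and 5.38 CPM in parental BT549 (control, Acetalax) and to 83.3 and 50.2 CPM in CE BT549, as against 3364 to 5784 CPM in MDA-MB468. EGFR, a growth factor receptor that was also on the epithelial list, is left out of this sum because its level exceeds that of the others in BT549. It lay at 314 and 379 CPM in parental and 250 and 440 CPM in CE BT549, so that with it the sum was 322 and 384 CPM in parental and 333 and 490 CPM in CE BT549. KRT8 and KRT18, the keratins of simple epithelia, made up nearly all of the sum of 4, and EPCAM stayed at 0.04 and 0.14 CPM and CDH1 at 0.96 and 0.36 CPM in CE BT549. The 3 mesenchymal markers VIM, CDH2 and ZEB1 summed to 1636 and 1721 CPM in parental and 1032 and 1145 CPM in CE BT549. The 6 blood and endothelial markers in the table summed to 1.42 to 2.97 CPM in the 4 BT549 libraries, with CD3E, HBB and VWF near 0. In MDA-MB468 these 6 summed to 47.4 and 20.7 CPM in parental and 14.2 and 6.60 CPM in CE cells (control, Acetalax). The part of these shifts in the result was not tested, and in bulk RNA fewer cells that carry a transcript and less of it per cell cannot be told apart.

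Since MLKL and CASP1 are genes that MDA-MB468 carries and parental BT549 nearly lacks, the other genes of this kind were counted, with limits set after the values were seen. There were 150 with at least 20 CPM in both untreated MDA-MB468 libraries and at most 0.1 CPM in both parental BT549 libraries. In untreated CE BT549 they stood at a median of 0.0477% of their level in untreated CE MDA-MB468, 139 of them below 1%, and CASP1 was the highest of the 150, at 17.9%. MLKL, whose 18.2 CPM in untreated CE MDA-MB468 is under the limit of 20, stood at 11.8%. CASP1 and MLKL were picked because they had been seen to be higher in CE BT549. Their high place here follows in part from that choice, so it is a description and no test. AIM2, a DNA sensor that no MDA-MB468 library contained (0 counts in all 4), had 0 counts in both parental and 3.12 and 1.38 CPM in both CE BT549 libraries, at least 43.9-fold and 20.1-fold higher.

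**Figure D4:**
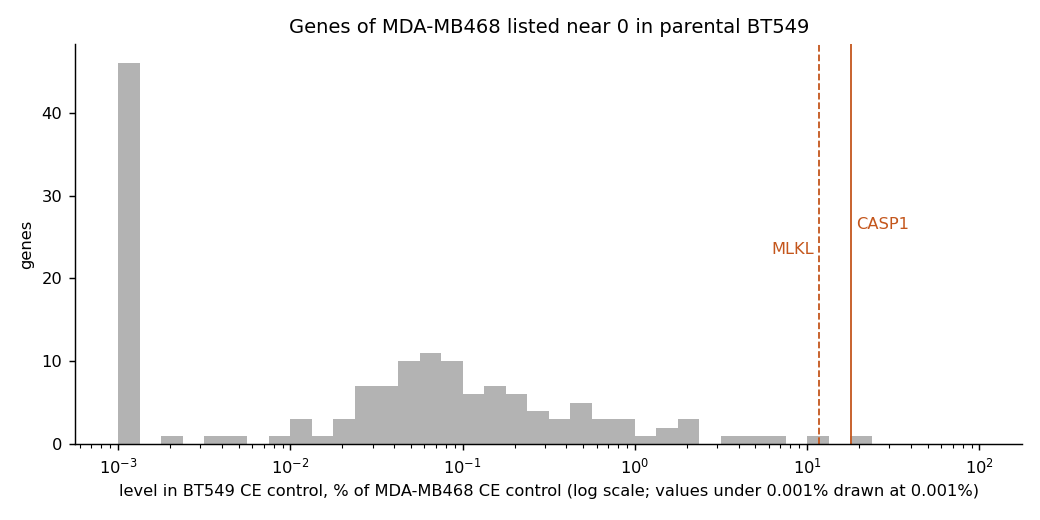
Level in untreated CE BT549 as a percentage of that in untreated CE MDA-MB468 (log scale) of the 150 genes with at least 20 CPM in untreated MDA-MB468 and at most 0.1 CPM in parental BT549; bar height is the number of genes. The median was 0.0477%, and the lines mark CASP1 at 17.9%, the highest of the 150, and MLKL at 11.8%, which is not one of them. Both were picked for their higher level in CE BT549, so their place is a description.

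Lines. The 2 lines differed in most genes, 11188 or 56.8% of those tested, and 7 of 9 effectors were called, 3 higher in BT549 (27.3% of all genes) and 4 lower (29.5%). DFNA5 was higher in BT549 by a log2 fold change of 4.93 (SE 0.36, adjusted p = 0.000118), or 30.4-fold, RIPK1 by 0.75 (SE 0.14, adjusted p = 0.00406) and GSDMD by 0.66 (SE 0.16, adjusted p = 0.0114). MLKL (-5.51, SE 1.26, adjusted p = 0.0100) and CASP1 (-4.79, SE 1.46, adjusted p = 0.0294) were lower in BT549, averaged over parental and CE cells, whose gaps were not alike. Within untreated parental cells MDA-MB468 held at least 286-fold more MLKL, and within untreated CE cells the levels were 18.2 and 2.14 CPM.

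CASP4 (-1.79, SE 0.24, adjusted p = 0.00110) and CASP8 (-0.63, SE 0.17, adjusted p = 0.0190) were lower in BT549 as well. CASP1 lost the call without the parental control (adjusted p = 0.0636) or parental Acetalax libraries (0.0559), and CASP8 without the parental Acetalax (0.0778) or CE Acetalax libraries (0.0530). NINJ1 (-0.60, SE 0.41, adjusted p = 0.247) and PANX1 (0.48, SE 0.18, adjusted p = 0.0589) were not called, PANX1 being called with DESeq2 (0.0422) and without the parental Acetalax libraries (0.0498). The 4 libraries of a line are 1 line under 4 conditions, so this compares these lines' libraries.

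Related genes. The genes around the effectors were described by lists, and their Acetalax response over the 4 backgrounds is set against the 2.72% of all genes called higher and 2.27% called lower. Of 14 inflammasome sensors and adaptors 9 were tested, 2 fell and 0 rose, with a median log2 fold change of -0.43. TXNIP, a thioredoxin inhibitor that can engage NLRP3, fell by 1.76 on the log2 scale (SE 0.31, adjusted p = 0.0376), from 21.1 to 4.34 CPM in parental and from 108 to 42.0 CPM in CE BT549, and was below 0.1 CPM in MDA-MB468. CARD8, a sensor that activates CASP1, fell by 0.66 (SE 0.13, adjusted p = 0.0424) and was lower in 4 of 4 pairs.

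Of 28 genes of death receptor and necroptosis signalling 27 were tested, 4 rose and 0 fell (median 0.14). TNFAIP3, a ubiquitin editing enzyme that restrains NF-κB and necroptosis, rose by 2.49 (SE 0.46, adjusted p = 0.0385), from 4.75 to 70.8 CPM in parental MDA-MB468, 5.44 to 46.3 in CE MDA-MB468, 26.0 to 47.3 in parental BT549 and 10.7 to 37.8 in CE BT549. BIRC3, a ubiquitin ligase that acts on RIPK1, rose by 2.05 (SE 0.38, adjusted p = 0.0384), though only from 15.5 to 19.2 CPM in parental BT549. TICAM1, the adaptor of the Toll-like receptors TLR3 and TLR4, rose by 1.01 (SE 0.18, adjusted p = 0.0377), and TRAF2, a partner of BIRC3, by 0.49 (SE 0.11, adjusted p = 0.0470; 0.0637 with total counts).

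Of 26 genes of plasma membrane repair, all tested, 1 rose (median 0.14): CHMP2B, a subunit of the ESCRT-III complex that sheds damaged membrane, by 0.81 (SE 0.14, adjusted p = 0.0367). Of 12 alarmins and cytokines released from lysed cells 9 were tested and 1 rose (median 0.12): IL18, which CASP1 and CASP4 mature, by 1.51 (SE 0.20, adjusted p = 0.0291), from 14.7 to 37.8 CPM in parental and from 27.0 to 78.9 CPM in CE MDA-MB468, with at most 0.02 CPM in BT549. None of the 9 tested of 14 other gasdermins, ninjurins, pannexins and caspases passed (median -0.37). The largest values were those of CASP10 (-1.08, adjusted p = 0.0614) and CASP6 (-0.70, adjusted p = 0.0721). DESeq2 called both (0.000364 and 0.0113), as did the fit without the filter, but each of these also called more of all genes. CASP10 had at most 4 counts in any BT549 library, so its value rests on MDA-MB468. It fell there from 33.4 to 14.0 CPM in parental and from 40.6 to 17.3 CPM in CE cells. None of the 5 tested of 6 transcription factors known to drive members passed (median -0.09), with 4 below 0 and 1 above. The 1 above 0 was SP1, at 0.27 (adjusted p = 0.220). TRPM4 was at -0.20 (SE 0.13, adjusted p = 0.362).

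**Figure D5:**
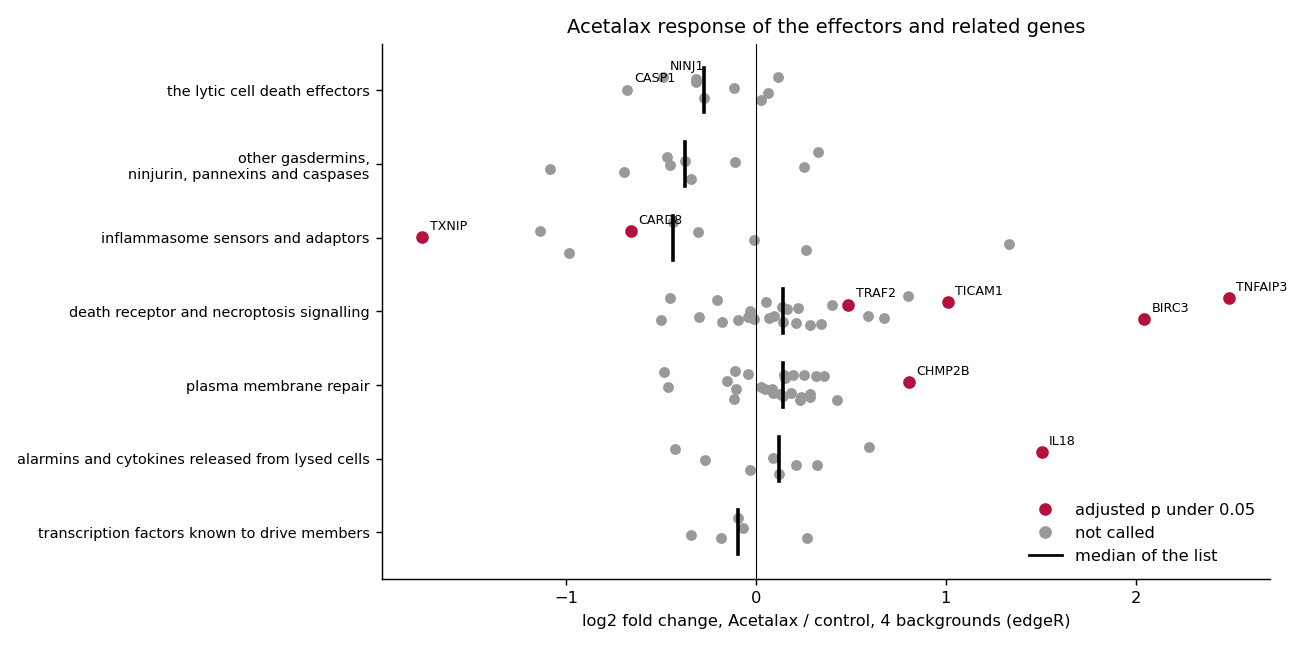
log2 fold change, Acetalax over control over the 4 backgrounds (edgeR), of every tested gene of the effectors and of 6 related lists, red where the adjusted p was under 0.05, with the median of each list as a bar. TNFAIP3 at 2.49 and BIRC3 at 2.05 were the highest and TXNIP at -1.76 the lowest, and no effector was red.

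These calls rest on few backgrounds. Without the pair of parental MDA-MB468 no gene of the table passed and the adjusted p of the 8 named list genes lay between 0.170 and 0.184, with the same signs. With the stricter filter of at least 5 CPM 7 of the 8 lay just above the threshold, at 0.0501 to 0.0515.

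Genes of the lists also differed between CE and parental BT549, in the fit chosen after the values were seen. Of the inflammasome sensors and adaptors 3 of 9 tested were higher in CE cells and 0 lower: NLRP1, the sensor that CARD8 resembles, by 3.64 (SE 0.22, adjusted p = 3.7e-05), TXNIP by 2.88 (SE 0.26, adjusted p = 0.000515) and AIM2, described above. Of the plasma membrane repair genes 8 of 26 were higher and 2 lower, of the death receptor and necroptosis genes 4 of 27 and 1, of the alarmins and cytokines 4 of 9 and 1, and of the relatives of the effectors 1 of 9 and 0. These are set against 12.3% of all genes higher and 10.1% lower. TRPM4 was higher in CE than in parental BT549 by 0.68 (SE 0.13, adjusted p = 0.00811). This value is RNA alone. In the study's Western blots TRPM4 protein was almost undetectable in the CE cells of both lines. The study describes the transcripts as unchanged in CE cells. Its own supplementary values for untreated cells are nevertheless higher in CE than in parental cells of both lines.

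Between the lines, large called differences within the lists were those of TXNIP (10.18) and AIM2 (8.75, lost with DESeq2, adjusted p = 0.185) among inflammasome genes and FAS (4.22), a death receptor, higher in BT549. TNFRSF10A (-2.80), a receptor of TRAIL, DYSF (-6.38) and CHMP4C (-6.02) of membrane repair, S100A9 (-12.92) and IL18 (-10.88) among the alarmins, and CASP10 (-9.00) and GSDMC (-6.50) among the relatives of the effectors were lower in BT549. TRPM4 was lower in BT549 by 1.20 (SE 0.18, adjusted p = 0.00195) on the log2 scale. Several of these genes are at or near 0 in one line, so their fitted sizes depend on the prior count. AIM2 had 0 counts in both parental BT549 libraries as well, so its difference between the lines rests on CE BT549 alone.

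Genes most like NINJ1 and DFNA5. Of the 11135 genes that averaged 5 CPM or more, those whose centred log2(CPM + 1) over the 8 libraries differed least from that of NINJ1 were CTSO (root mean square difference 0.211), SPRY1 (0.212) and PSMB8 (0.245), where NINJ1 itself varied by 0.767 around its mean. For DFNA5, which varied by 2.11, they were ARMCX1 (0.188), AFF3 (0.188) and MEIS3 (0.212). This is a description over 8 libraries that share their lines and states.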

How the data were processed

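RNA-seq counts of 8 libraries were analysed. Per the submitters' processing notes and the study's methods, reads were aligned to hg19 with STAR (2.7.11b in the notes) and the authors deposited raw counts per gene from its gene count option. The annotation release and the strand column are not given in the sources used here. STAR counts a read only where it maps once and to 1 gene, so transcripts of near copies or overlapping genes are undercounted. Of 58154 rows, repeated identifiers were used once, which left 55679, and 28 symbols turned into dates were restored by identifier.

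The 10 effectors, the related gene lists and the comparisons were chosen with earlier results of these data known. CPM are counts scaled to a total of 1000000. Tests were edgeR 4.0.16 quasi-likelihood fits (R 4.3.3) with TMM scaling and filterByExpr, at a Benjamini-Hochberg adjusted p under 0.05 over all genes, on log2 fold changes. The 4-background fit had an intercept for each background and 3 residual degrees of freedom, the fits by state or line 2, that of the 4 control libraries 1, and the line fit 3. No block by replicate was possible with 1 library per condition. Pair ratios needed 10 counts in both libraries and have 95% exact conditional binomial intervals, and levels have Wilson intervals, both for counting error only. Alternatives were DESeq2 1.42.0, other scalings, filters and pseudocounts, and leaving out each pair or condition. The fits were run on simulated counts with planted changes, as a check of the code. Those counts had a single spread and no other differences between lines or states, unlike the data. From each list the called genes, at most 4, or the 2 with the largest change, are named for Acetalax, and 2 for the lines. Some list genes and 1 searched motif are not reported here. List genes of the CE comparison of BT549 were chosen after their values were seen.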

Additional observations from a re-analysis of the deposited data

Results flagged for a closer look

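The CE effect differed between the lines by a test of the difference itself for 5 effectors, all with the larger value in BT549: NINJ1 (log2 difference 1.74, SE 0.21, adjusted p = 0.00196, edgeR quasi-likelihood test), DFNA5 (1.06, SE 0.24, adjusted p = 0.0260), MLKL (6.89, SE 0.68, adjusted p = 0.000726), CASP1 (8.05, SE 0.52, adjusted p = 0.000102) and CASP4 (0.92, SE 0.19, adjusted p = 0.0203). The sizes for MLKL and CASP1 depend on the prior count, since parental BT549 held 0 or 1 count of each. In 3 further cases every pair of one line moved opposite to every pair of the other, while the tested difference did not pass. These were DFNA5 (-0.88, adjusted p = 0.117) and PANX1 (-0.38, adjusted p = 0.392) in the response to Acetalax, above 0 in both MDA-MB468 pairs and below 0 in both BT549 pairs, and CASP8 (-0.065, adjusted p = 0.903) in the CE effect. With TMM-scaled totals the opposition was gone for PANX1, at 0.042 in CE BT549, and for CASP8, at -0.00070 and 0.066 in BT549 against 0.016 and 0.18 in MDA-MB468. The counting intervals of 3 of the 4 CASP8 ratios held 0. No explanation was weighed for any of them.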

How the results depend on the processing

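Counts of called genes moved more than the effectors' values. With DESeq2 they were 2930 for Acetalax over 4 backgrounds (984 in edgeR), 90 in parental and 357 in CE cells (0 and 0), 941 for the difference between lines (351) and 50 for CE against parental control cells (0). Without the filter they were 3585, 643, 1080, 1632 and 45, with 3 for the difference of the responses of CE and parental cells (0) and 1817 for CE against parental MDA-MB468 (870). With at least 5 CPM they were 71 for Acetalax, 25 for the difference between lines, 6567 for BT549 against MDA-MB468 (11188) and 420 for CE against parental MDA-MB468. Terms for line, CE and Acetalax alone gave 0 for Acetalax, and all 8 libraries gave 23 for CE against parental. Leaving out a pair of libraries gave 0 (without parental MDA-MB468) to 554 for Acetalax, 0 to 182 (without parental BT549) in parental cells, 0 to 207 (without CE MDA-MB468) in CE cells, 0 to 2 for the difference of CE and parental responses, 100 (without parental MDA-MB468) to 1360 (without parental BT549) for the difference between lines, 1302 (without the Acetalax libraries of MDA-MB468) to 2906 (without the controls of BT549) for the CE effect of BT549 minus MDA-MB468 (2404) and 294 to 409 for CE against parental MDA-MB468. Other scalings kept each of these totals within 1.5 times, but with total counts the genes lower under Acetalax went from 448 to 685.

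Sign changes were limited to values near 0 and to MLKL. Total counts gave -0.063 for DFNA5 and -0.025 for MLKL under Acetalax and -0.060 for CASP8 in CE against parental BT549, and terms for line, CE and Acetalax alone gave -0.14 for MLKL. TMM-scaled totals, which lift the pair of CE BT549 by 0.16 on the log2 scale, turned PANX1 there to 0.042. Leaving out libraries gave -0.13 to 0.23 for DFNA5 and -0.20 to 0.37 for MLKL under Acetalax, -1.19 to 3.00 (without CE BT549) for MLKL and -0.049 to 0.19 for CASP4 in the difference between lines, and -0.094 to 0.061 for CASP8 in the difference of CE effects. The cause of these moves was not tested. Levels near 0 limit DFNA5 in MDA-MB468, at 57 to 107 counts, and MLKL and CASP1 in parental BT549. Control and treated libraries were paired by background in each Acetalax fit, and no block by replicate number could be added with 1 library per condition.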
